A study of Mus musculus with 13 samples.

Results

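The T-ALL and T-MPAL libraries are the DNA of the T-lineage leukaemias in a mouse series on acute leukaemias driven by N-Myc, and they are 2 of its 13 samples and 2 of the 7 that have variant tables. They were chosen by their labels, with earlier results of these data known. Their called variants and copy number rows on chromosomes 1 to 19 were set side by side. The T-ALL library came from 2000000 CD3+GFP+ bone marrow cells of leukaemic C57BL/6 mice that overexpress N-Myc from a retrovirus, with a stated stage of 8 to 10 weeks. The T-MPAL library came from 1000000 GFP+Mac1/Gr1-B220-CD3/4/8+ bone marrow cells, the T-lymphoid fraction of a mixed-phenotype acute leukaemia of the same strain, stage and retroviral N-Myc. The empty control was a library of 1000000 GFP+ bone marrow cells of empty control mice of the same strain and stage. Each population was sequenced once, so no difference between them has a replicate check and no p-value can be given. The labels do not say how many mice each library holds, and they name no matched normal DNA, so inherited and acquired variants cannot be told apart. T-ALL was described under one extraction text and T-MPAL under another that also covers the control, so the difference between the leukaemias and the difference in protocol cannot be told apart.

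N-Myc is a transcription factor of the Myc family that drives growth and division, and its gene Mycn is amplified or overexpressed in several human cancers. T-cell acute lymphoblastic leukaemia is a cancer of T-cell precursors, while mixed-phenotype acute leukaemia carries features of more than one blood lineage. Developing T cells cut and rejoin the V, D and J segments of their receptor loci and delete the DNA between the joined ends, so that deletions at Trb, Trg and Tra/Trd are marks left in the DNA of cells that went through this process.

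Few of the variants lay in sequences with a named regulatory or RNA product, and those shown here were picked after their values were seen, because they lie in or just before genes of blood-cell regulation, in a miRNA, in a coding exon, or at a site where both leukaemias differ. The first pair are the 250 bases before the start sites of Mllt10, a chromatin factor that is a fusion partner in human T-ALL and AML, and of Cbfa2t3, a corepressor that acts in haematopoietic cells. The T-ALL library called A50C before Mllt10, at chr2:18055036 on the plus strand, with 10 of 19 reads. The T-MPAL library called G118A before the start site of Cbfa2t3, at chr8:122678308 on the minus strand, with 9 of 21 reads. The deposited annotation lists this site as intronic and the one before Mllt10 as upstream. Positions count from 1 at the first printed base, the capital marks the base that was called, and both sequences are those of RefSeq on GRCm38.p6.
Mllt10 (chr2:18054987-18055236, plus strand): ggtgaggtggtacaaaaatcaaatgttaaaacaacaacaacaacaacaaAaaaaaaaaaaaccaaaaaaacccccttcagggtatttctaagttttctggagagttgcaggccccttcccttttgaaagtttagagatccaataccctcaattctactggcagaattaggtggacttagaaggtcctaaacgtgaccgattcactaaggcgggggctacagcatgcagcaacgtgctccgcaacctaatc
Cbfa2t3 (chr8:122678176-122678425, minus strand): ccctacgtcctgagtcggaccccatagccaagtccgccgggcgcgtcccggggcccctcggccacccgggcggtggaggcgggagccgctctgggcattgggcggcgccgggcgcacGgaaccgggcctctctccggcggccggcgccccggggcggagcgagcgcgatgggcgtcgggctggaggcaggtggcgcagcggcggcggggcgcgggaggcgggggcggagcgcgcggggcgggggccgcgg
The call before Mllt10 stood in a run of A bases and was called in no other library. The call at Cbfa2t3 was also made in the M-MPAL library, the myeloid fraction of the mixed-phenotype leukaemia. The T-ALL library also called C48U in the hairpin of Mir682, with 74 of 94 reads, an allele that was called in B-ALL and AML as well. It was the only kept call of either library inside a hairpin of the RefSeq miRNA table, and it lay outside the mature miRNA.
Mir682 hairpin (chr13:75645046-75645141, plus strand): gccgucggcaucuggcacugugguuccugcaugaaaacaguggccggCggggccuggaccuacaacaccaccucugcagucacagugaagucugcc
The last of the set are small deletions and insertions. In Zfp956, a zinc finger gene, the T-ALL library called a deletion annotated as a frameshift (G166fs) with 13 of 20 reads, an allele that was also called in B-ALL. Its annotated coding change, 496_505del, is shorter than the deletion, which therefore reaches beyond the coding part of the exon. The capitals are the 27 bases that were missing.
Zfp956 reference allele (chr6:47957592-47957619, plus strand): aGGCTCTCTAGGTAAGAGACATCCCCAG
In Rbp4, which encodes the plasma carrier of retinol, the T-MPAL library called a deletion of 1 base annotated as a frameshift (G25fs), shown as the capital in tC at chr19:38124993, with 8 of 17 reads and in no other library. In the UTR of Jkamp, a gene of the endoplasmic reticulum, the libraries carried different alleles at chr12:72085874. There T-ALL had an insertion of 2 bases (c to cGA) in 6 of 10 reads. T-MPAL had a deletion of 4 bases (cGAGA to c) in 7 of 13 reads. The T-ALL allele was also called in 1 other leukaemia library, and the T-MPAL allele in none.

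The first question was how many variants the leukaemias shared and how many each had alone. An allele was kept where it had a caller quality of 100 or more, a depth of 10 reads or more with 4 or more of the alternative allele, a share of these of 0.2 or more, no segmental duplication at the site and no call in the empty control, however weak. Of the 40796 SNVs that T-ALL had on chromosomes 1 to 19, 2348 were kept, and of the 35287 of T-MPAL, 1932 were kept. T-ALL alone had 1622 SNVs (95% interval 1544 to 1703), T-MPAL alone had 1380 (1308 to 1455) and 422 (383 to 464) passed in both. A further 304 passed in T-ALL with a weaker call in T-MPAL, and 130 passed in T-MPAL with a weaker call in T-ALL, and these are left out of the 3 classes. Small insertions and deletions (INDELs) numbered 5653 (5507 to 5802) in T-ALL alone, 3663 (3545 to 3784) in T-MPAL alone and 670 (620 to 723) in both, and 1251 more of T-ALL and 747 of T-MPAL had a weaker call in the other library.

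Counts carry exact Poisson intervals and shares exact Clopper-Pearson intervals. Both describe counting error alone, because the reads carry no molecular identifiers and may repeat a molecule. The sequencing depth was planned at 30x. Over the 19831 autosomal SNVs that every library called, taken without the filters, T-ALL had a median of 52 reads, T-MPAL 47 and the control 43. At SNVs that passed the filters, before alleles of the control were dropped, the medians were 31 in T-ALL, 29 in T-MPAL and 29 in the control. The tables list called sites only, so the depth at a site that was not called is unknown, and an allele counted for one library alone may have been missed in the other.

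**Figure D1:**
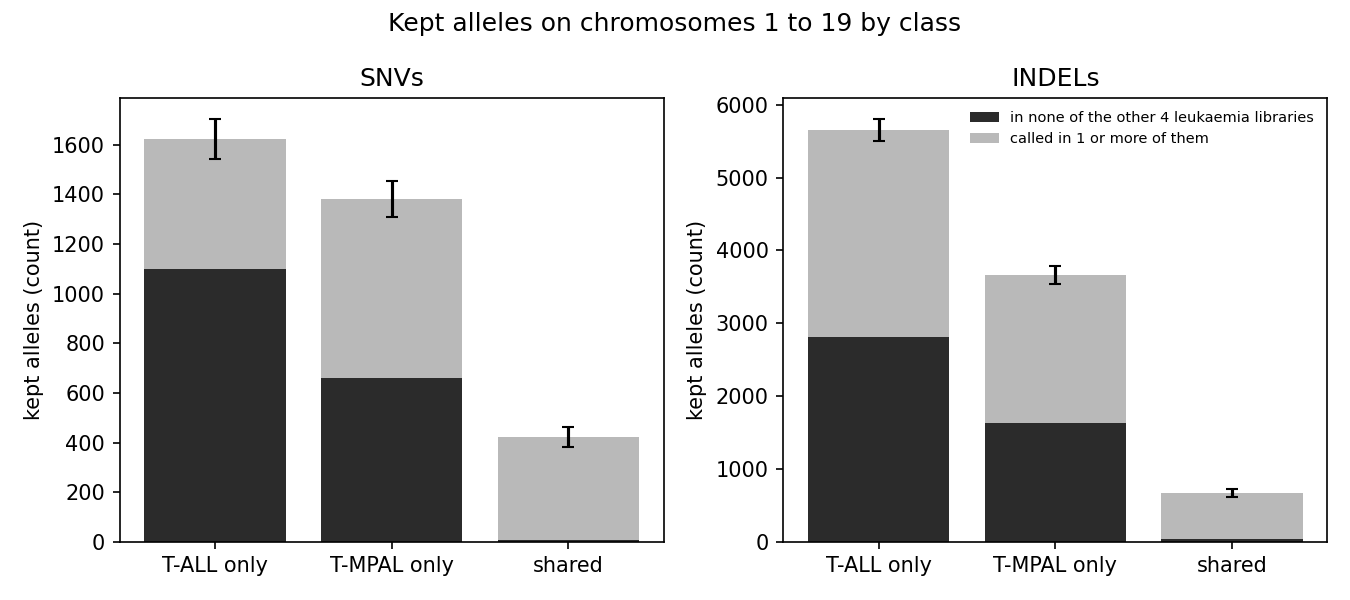
Kept SNVs (left) and INDELs (right) by class, with the number of alleles on the y axis and exact Poisson 95% intervals as error bars. The dark part of each bar are alleles called in none of the other 4 leukaemia libraries, which make up 1100 of 1622 SNVs in T-ALL, 661 of 1380 in T-MPAL and 8 of 422 among the shared ones.

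The order of the SNV counts depended on what was counted as a separate variant. The ratio of T-ALL to T-MPAL was 1.18 over all kept SNVs, 0.934 when SNVs listed in dbSNP were left out and 0.778 when clustered SNVs were left out, so under both settings T-MPAL had more. An SNV is called clustered here when another kept SNV of the library lies within 1 kb. In T-ALL 642 SNVs were clustered (39.6%, 37.2 to 42.0), against 120 (8.70%, 7.26 to 10.3) in T-MPAL. For INDELs T-ALL had more under each setting tried, with ratios between 1.32 and 1.82.

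The clustered SNVs of T-ALL were deeper than its unclustered ones. Their median depth was 50 reads, against 25, and 49.5% were listed in dbSNP, against 23.9%. The densest stretch of kept SNVs, chr8:123426442-123434110 in intergenic DNA, held 36 at a median depth of 67 reads, and all 36 were called in B-ALL and AML but none in AUL or M-MPAL. A copy number row at chr8:123426001-123428000, which overlaps the start of this stretch, was listed at 6 copies in T-ALL and 4 in B-ALL. A stretch of 20 SNVs at chr11:48752357-48753496 was called in no other leukaemia library. Another stretch of 20, at chr6:68245340-68250433 inside the immunoglobulin kappa locus, was called at 19 sites in B-ALL and 17 in AML. In T-MPAL the densest stretch was chr1:88212655-88309121 with 59 SNVs, 57 of them in dbSNP, around Mroh2a and the Ugt1a genes. In T-ALL 31 kept SNVs lay in nearly the same stretch. There the copy number tables give 11 to 13 copies in T-ALL, 11 to 13 in T-MPAL and 12 in the control, so calls in this region rest on reads of many copies.

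Where else an allele was called separated the libraries. Of the SNVs of T-ALL alone, 522 (32.2%) were called in at least 1 of the other 4 leukaemia libraries, with 386 in B-ALL, 376 in AML, 267 in AUL and 149 in M-MPAL. Of those of T-MPAL alone, 719 (52.1%) were, with 669 (48.5%, 45.8 to 51.2) in M-MPAL and between 109 and 129 in each of B-ALL, AML and AUL. The libraries that overlapped T-ALL most share its extraction text, and M-MPAL shares that of T-MPAL, so protocol and leukaemia cannot be told apart here. Of the 422 SNVs that passed in both T-lineage libraries, 414 (98.1%, 96.3 to 99.2) were called elsewhere and 253 in all 4 others, so only 8 were called in these leukaemias alone. The shared SNVs also had a higher median share of alternative reads, 0.632 in T-ALL and 0.619 in T-MPAL, against 0.462 for SNVs of T-ALL alone and 0.5 for those of T-MPAL alone. In 135 of the shared SNVs the share was at least 0.9 in both libraries.

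By position, most SNVs lay outside genes in both libraries. In T-ALL alone 1062 SNVs (65.5%) were intergenic and 413 (25.5%) intronic, and in T-MPAL alone 863 (62.5%) were intergenic and 424 (30.7%) intronic. The libraries differed in the UTRs, with 31 SNVs in UTRs at the 3′ end and 5 at the 5′ end in T-ALL, against 6 and 2 in T-MPAL, and in exons of noncoding RNAs, with 16 in T-ALL and 3 in T-MPAL. All exonic, UTR and noncoding exonic SNVs together made up 83 of 1622 (5.12%, 4.10 to 6.30) in T-ALL and 41 of 1380 (2.97%, 2.14 to 4.01) in T-MPAL, intervals that do not overlap. Of the 83 in T-ALL, 47 lay in 11 genes described below. They are not separate observations, and the intervals take no account of this. Coding SNVs were about equally many, 31 in T-ALL and 30 in T-MPAL, and 9 of 31 (29.0%, 14.2 to 48.0) altered the amino acid in T-ALL and 18 of 30 (60%, 40.6 to 77.3) in T-MPAL, with intervals that overlap. Without 11 genes described below, whose kept SNVs lay in exons and UTRs alone and which were set apart after the data were seen, the share in T-ALL was 7 of 16 (43.8%, 19.8 to 70.1). No stop-gaining SNV was kept in either library.

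Variants that alter a protein or a splice site numbered 12 (6.20 to 21.0) in T-ALL alone, 21 (13 to 32.1) in T-MPAL alone and 2 (0.242 to 7.22) in both. They touched 11 genes in T-ALL, 0.0532% of the 20665 protein-coding genes on these chromosomes, 19 genes in T-MPAL (0.0919%) and 2 shared genes (0.00968%). In no other library were 8 of those of T-ALL and 10 of those of T-MPAL called. Another 10 of T-MPAL were also called in M-MPAL. With calls in annotated repeats left out, variants that alter a protein or splice site numbered 10 in T-ALL, 19 in T-MPAL and 2 in both. No gene with such a variant belonged to the leukaemia and T-cell gene lists described below, and Mroh2a was the only gene with such variants at different positions in both libraries.

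Most protein-altering variants of T-ALL were called in that library alone. Thbs1, which encodes the matrix protein thrombospondin 1, had Q960R with 27 of 64 reads (42.2%, 29.9 to 55.2) and F951V with 25 of 62 reads (40.3%, 28.1 to 53.6), both in exon 18. Both calls were clustered, and Q960R is listed in dbSNP. Thbs1 also belongs to the genes set apart above, whose kept SNVs lay in exons and UTRs alone. Kdm4a, a demethylase of histone H3, had S1047L with 16 of 28 reads (57.1%, 37.2 to 75.5) in exon 22. Abcc2, an export pump for conjugated organic anions, had R1077W with 19 of 38 reads, and Podnl1, a leucine-rich repeat protein of the matrix, had L380V with 17 of 37. Ganc, an alpha-glucosidase, had D444N with 15 of 33 reads, and Aoc3, an amine oxidase of vessel walls and fat cells, had R566L with 7 of 29. None of these 7 changes was called in any other library, and 5 of them had shares between 40.3% and 50%, with Kdm4a above this range and Aoc3 at 24.1% below it. Others were called elsewhere too. Eppk1, which encodes a linker of intermediate filaments, had E3048V with 32 of 115 reads and was called in B-ALL, AML and M-MPAL. Mroh2a had D1050N with 31 of 149 reads, and a deletion of 2 bases at a splice site of Ccdc6, a gene found fused to RET in human thyroid cancer, had 8 of 23 reads. Both were called in AML and M-MPAL, and that of Ccdc6 in AUL as well. An in-frame deletion in Zfp503, a zinc finger gene named after its value was seen, had 4 of 12 reads and was called nowhere else. The deletions in Ccdc6 and Zfp503 lay in annotated repeats, and that in Zfp503 had a caller quality of 101, just above the minimum.

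In T-MPAL most of the variants fell into those found in M-MPAL too and those in T-MPAL alone. Of the first kind, Gcsam, a signalling adaptor of germinal-centre B cells, had D147N with 20 of 30 reads in T-MPAL and 12 of 28 in M-MPAL. Hmgb2, a chromatin protein that bends DNA, had P175S with 13 of 26 reads in T-MPAL and 15 of 31 in M-MPAL. Both alleles were also called in B-ALL and AML. Ttpa, which transports vitamin E, had R32K with 15 of 28 reads in T-MPAL and 13 of 24 in M-MPAL, and Neu3, a sialidase of gangliosides, had R125H with 10 of 16 and 10 of 21. Csmd1, a large membrane protein that regulates complement, had D742Y with 10 of 21 reads in T-MPAL and 16 of 27 in M-MPAL, and P3183S with 9 of 22 and 7 of 16. The shares of these 6 changes in T-MPAL lay between 40.9% and 66.7%, and those in M-MPAL between 42.9% and 59.3%. The labels do not say whether the fractions came from 1 mouse. Chosen after their values were seen, Vmn2r109, a vomeronasal receptor, had I628T with 22 of 28 reads in T-MPAL and 15 of 26 in M-MPAL, Pdhx, a component of the pyruvate dehydrogenase complex, had G226D with 8 of 14 and 14 of 26, and Atg5, which is required for autophagy, had S106R with 8 of 21 and 7 of 19.

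Of the variants that no other library had, Cd180, a receptor of the Toll-like family on B cells and myeloid cells, had S163Y with 12 of 26 reads (46.2%, 26.6 to 66.6). Tulp3, which carries membrane proteins into cilia, had L21P with 10 of 27 reads (37.0%, 19.4 to 57.6). Dnajc17, a heat-shock cochaperone, had R287C with 9 of 26 reads, and a deletion of 2 bases at a splice site of Tbc1d22a, a gene of the Rab GTPase regulators, had 9 of 20. Read depths at these sites were between 20 and 27, so each share has a wide interval. The remaining ones, named after their values were seen, were H123N in the NADPH oxidase gene Nox4 (8 of 31 reads), G222D in the telomere-protection gene Acd (8 of 25), A494T in the carboxylesterase gene Ces2a (8 of 27), R6W in L3mbtl4 (8 of 20), the frameshift in Rbp4 and an in-frame deletion in D6Ertd527e (5 of 25). The deletions in Tbc1d22a and D6Ertd527e lay in annotated repeats and had caller qualities of 101 and 103, just above the minimum. Mroh2a had V140M with 64 of 89 reads and S750L with 52 of 134. Both are listed in dbSNP and were called in 2 and 4 of the other leukaemia libraries.

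The shared protein-altering variants were Y232F in Ugt1a1, which conjugates bilirubin, and A1665T in Cmya5, a muscle protein. Y232F had 52 of 171 reads in T-ALL and 46 of 141 in T-MPAL, and A1665T had 20 of 30 reads in T-ALL and 12 of 25 in T-MPAL. Both were called in M-MPAL, Y232F in AML and A1665T in AUL. Ugt1a1 lies in the stretch of chromosome 1 with 13 copies in T-ALL, 13 in T-MPAL and 12 in the control.

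The gene of the oncogene itself separated the libraries. T-MPAL had 3 SNVs in the coding exons of Mycn on chromosome 12, all synonymous and all listed in dbSNP. Neither T-ALL nor the empty control had any call in the gene. Q390Q at chr12:12937225 had 28 of 57 reads (49.1%, 35.6 to 62.7), G307G at chr12:12937474 had 12 of 33 reads (36.4%, 20.4 to 54.9) and R124R at chr12:12940022 had 28 of 60 reads (46.7%, 33.7 to 60). M-MPAL had the same 3 alleles at 8 of 37, 8 of 33 and 13 of 39 reads, and B-ALL, AML and AUL had none. No copy number row of T-ALL, T-MPAL or the control covered Mycn. Whether these reads came from the mouse's own gene or from the retroviral N-Myc copy was not tested.

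The exonic and UTR SNVs of T-ALL were deeper than its other SNVs. Their median depth was 49 reads (83 SNVs), against 27 in introns and 31 in intergenic DNA. In T-MPAL the medians were 28 reads (41 SNVs), 25 in introns and 23 in intergenic DNA. Of the 83 in T-ALL, 71 were called in none of the other 4 leukaemia libraries, and of the 41 in T-MPAL, 11 were. Over all SNVs of each library alone, 1100 of 1622 (67.8%) in T-ALL and 661 of 1380 (47.9%) in T-MPAL were called in none of them. These 4 include M-MPAL, the myeloid fraction of the mixed-phenotype leukaemia. It had calls at 669 of the 1380 SNVs of T-MPAL and 149 of the 1622 of T-ALL. The part of M-MPAL in the contrast between the libraries was not tested.

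**Figure D2:**
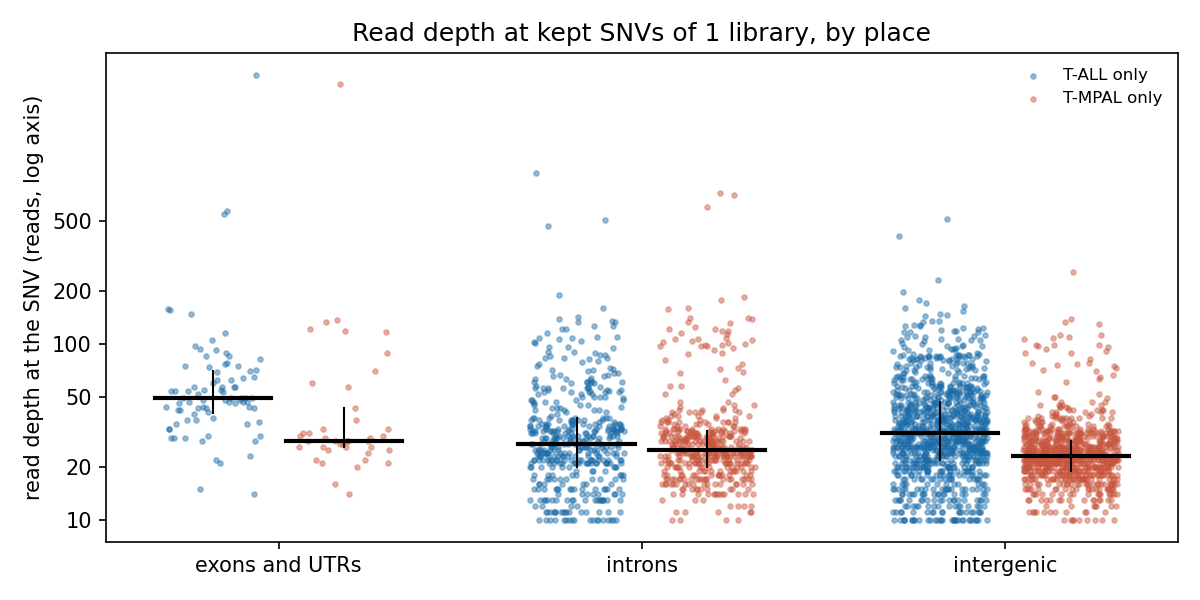
Read depth (y axis, log scale) at each kept SNV of T-ALL alone (blue) and T-MPAL alone (red), by place, with the median as the thick line and the quartiles as the thin bar. The exonic and UTR SNVs of T-ALL have a median of 49 reads and those of T-MPAL 28, while the intronic medians are 27 in T-ALL and 25 in T-MPAL.

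These SNVs gathered in single genes. In T-ALL 15 genes or gene pairs had at least 2 of them. Of these, 11 genes with 47 SNVs had no SNV call, however weak, in any of the other 6 libraries and no kept SNV in an intron. Thbs1 had 12, with 6 in coding exons and 6 in UTRs, and Actb, which encodes beta-actin, had 8, all synonymous, at depths between 44 and 105 reads. Malat1, an abundant nuclear noncoding RNA, had 6 at depths between 71 and 86 reads, and Pfn1, the actin-binding profilin, had 4. Aldoa, Itgb1 and P4hb had 3 each, and Canx, Lmna, Vim and Rmrp, the RNA of RNase MRP, had 2 each, those of Rmrp at 552 and 572 reads. Over these genes the median share of alternative reads ran between 0.281 in Lmna and 0.495 in Rmrp. T-MPAL had 3 genes with at least 2 such SNVs, namely Mroh2a, Mycn and Csmd1, and each was also called in other libraries.

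Of these 11 genes, Malat1 and Rmrp were the 2 with a copy number row in T-ALL, and none had one in T-MPAL or the control. T-ALL had 31 gains under 1 Mb that overlapped no gain of T-MPAL or the control. By annotation 17 were intergenic, 9 exonic, 3 exonic in a noncoding RNA, 1 in a UTR and 1 in an intron. Of the 22 such gains of T-MPAL outside chromosomes 15 and 17, 8 were exonic. These counts are of rows. The T-ALL rows at Psap and Cdh23 adjoin over chr10:60298001-60328000 at 3 copies, and those at Malat1 adjoin too, so they are not separate gains. Malat1 was listed at 6 copies over chr19:5795001-5816000, Rmrp at 11 copies and Ctsd, which encodes the lysosomal protease cathepsin D, at 6. Ctsb, encoding cathepsin B, and the scaffold gene Akap12 were listed at 4 copies, and Ahnak, Gpnmb and Psap at 3. Ctsb had 1 kept SNV in an exon or UTR, and Ctsd, Akap12, Ahnak, Gpnmb and Psap had none. The source of the extra depth over these exons was not tested.

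The base changes were compared over a narrower set of SNVs, those with no dbSNP entry, no neighbour within 1 kb and no call in any other library, of which T-ALL had 642 and T-MPAL 589. C>T, counted together with its complement on the other strand, was the most frequent change, with 248 (38.6%, 34.8 to 42.5) in T-ALL and 187 (31.7%, 28.0 to 35.7) in T-MPAL. T>C made up 114 (17.8%, 14.9 to 20.9) in T-ALL and 173 (29.4%, 25.7 to 33.2) in T-MPAL, intervals that do not overlap. The other 4 kinds had overlapping intervals. The T>C difference had the same direction outside repeats, with 18.6% (14.5 to 23.2) in T-ALL and 29.7% (24.5 to 35.3) in T-MPAL, and inside them, with 16.9% (12.9 to 21.5) in T-ALL and 29.1% (24.0 to 34.6) in T-MPAL. Over all kept SNVs the order was turned, with T>C at 27.2% (25 to 29.4) in T-ALL and 22.9% (20.7 to 25.2) in T-MPAL, and C>T at 34.9% in T-ALL and 38.6% in T-MPAL. The contrast therefore holds for the narrower set alone, which was defined after the data were seen.

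**Figure D3:**
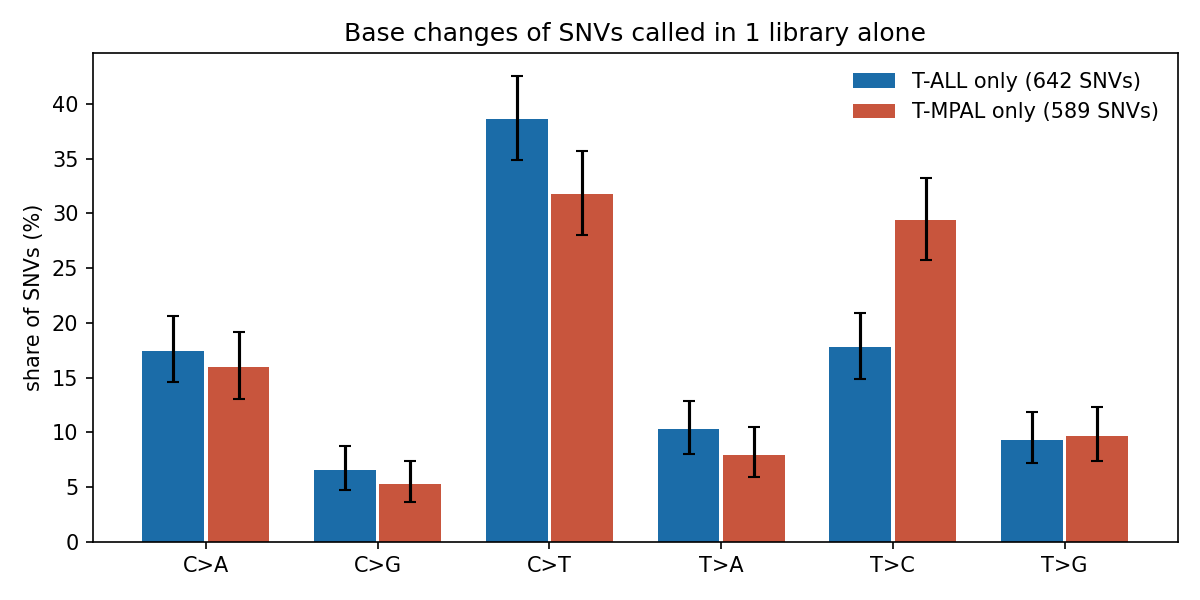
Share of each base change (y axis, percent) among SNVs called in 1 library alone without dbSNP entry or neighbour, 642 in T-ALL (blue) and 589 in T-MPAL (red), with exact 95% intervals. T>C is at 17.8% in T-ALL and 29.4% in T-MPAL, and the intervals of the other changes overlap.

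In the same SNVs the share of alternative reads lay a little under 0.5, the share of a variant on 1 of 2 copies, on most chromosomes of both libraries, but not on all. On chromosome 5 of T-ALL the median share was 0.846 over 29 SNVs, of which 11 (37.9%, 20.7 to 57.7) reached 0.9, against a median of 0.459 and 6 of 613 (0.979%) on its other chromosomes. The high shares ran between positions 15971836 and 137648094, the first and last SNV at 0.7 or more, and 19 of the 23 SNVs in this stretch had at least 0.7. T-MPAL had a median of 0.429 on chromosome 5, and no SNV there reached 0.9. On chromosome 18 of T-MPAL the median was 0.98 over 18 SNVs, of which 13 (72.2%, 46.5 to 90.3) reached 0.9, against 0.464 and 4 of 571 (0.701%) on its other chromosomes. T-ALL had a median of 0.424 on chromosome 18 and none of 30 at 0.9. On chromosome 19, T-MPAL had 3 of 8 SNVs at 0.9 or more, and T-ALL none of 15. The choice of these chromosomes was made with their values in view.

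The INDELs on chromosomes 5, 18 and 19 had the same direction. Among those called in none of the other 4 libraries, 55 of 180 (30.6%, 23.9 to 37.8) on chromosome 5 of T-ALL had a share of at least 0.9, against 13.5% outside it. On chromosome 18 of T-MPAL 26 of 62 (41.9%, 29.5 to 55.2) did, against 13.9% outside it, and on chromosome 19 13 of 36 (36.1%, 20.8 to 53.8). The copy number tables listed little on these chromosomes, with 0.038 Mb in 5 rows on chromosome 5 of T-ALL, 0.043 Mb in 9 rows on chromosome 18 of T-MPAL and 0.013 Mb in 2 rows on chromosome 19 of T-MPAL. SNVs of T-MPAL that M-MPAL carried too gave medians of 1 on both chromosomes 18 and 19, with 16 of 17 and 6 of 7 SNVs at 0.9 or more. On chromosome 15 of T-MPAL, where 204 rows covered 100.6 Mb, the median share was 0.358 over 24 SNVs at a median depth of 35.5 reads, against 0.455 over 22 SNVs at 26.5 reads in T-ALL. Other variants of T-MPAL on chromosome 15 had a median of 0.563 over the 26 SNVs also in M-MPAL and of 0.524 over the 137 INDELs called in none of the other 4 libraries, of which 30 (21.9%, 15.3 to 29.8) reached 0.9, against 14.3% outside it.

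**Figure D4:**
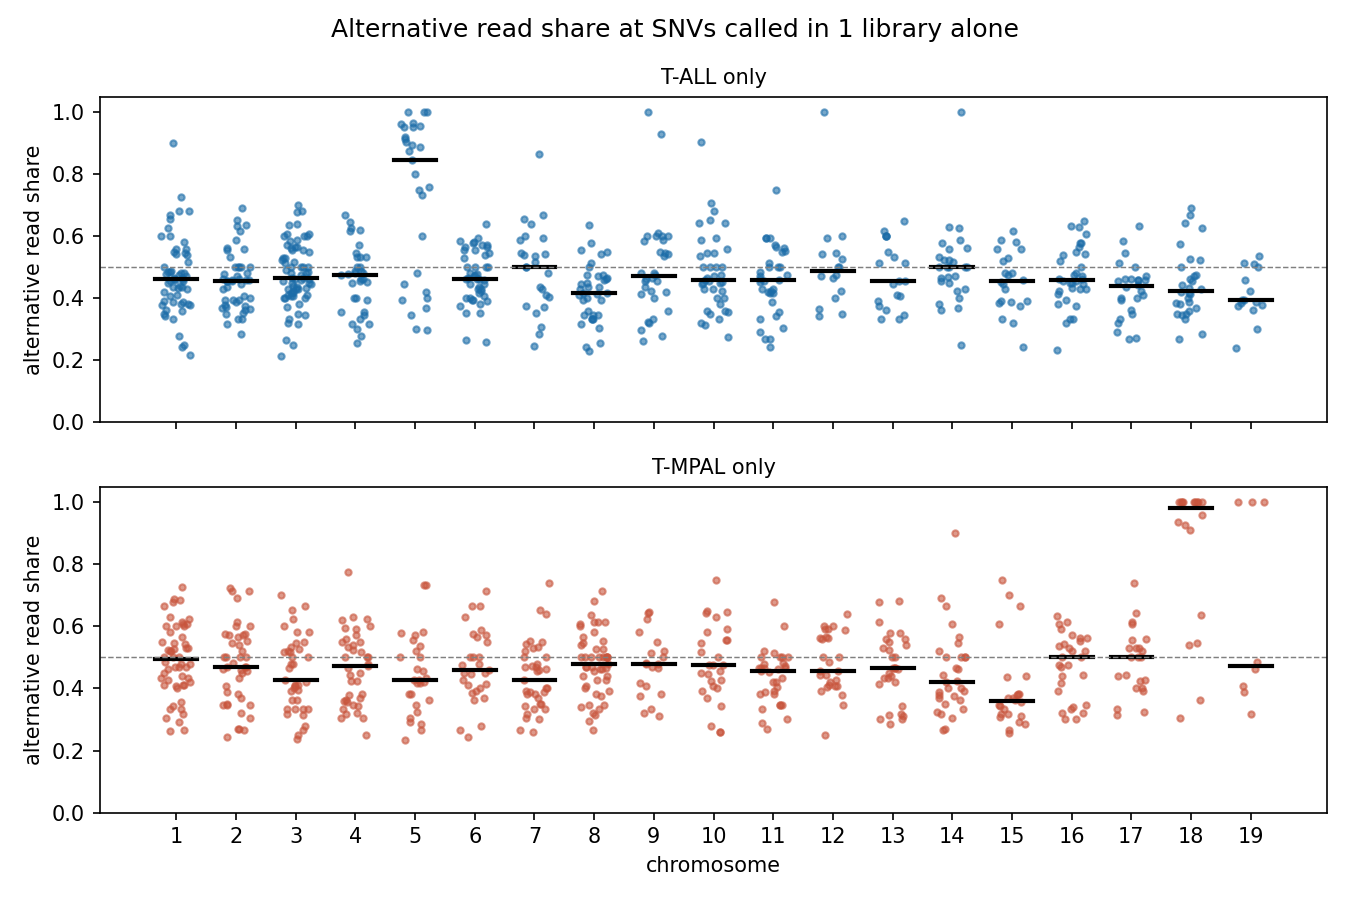
Share of alternative reads (y axis) at each SNV called in 1 library alone without dbSNP entry or neighbour, by chromosome, for T-ALL (above) and T-MPAL (below), with the median as the black bar and 0.5 as the dashed line. The medians that stand apart are 0.846 on chromosome 5 of T-ALL, 0.98 on chromosome 18 and 0.358 on chromosome 15 of T-MPAL.

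The INDELs of both libraries lay almost wholly in repeats. In T-ALL alone 5541 of 5653 (98.0%) and in T-MPAL alone 3578 of 3663 (97.7%) were in annotated repeats, and 85.1% in either library were in simple repeats, which are short tandem motifs. Outside repeats 112 were left in T-ALL and 85 in T-MPAL. Deletions made up 60.7% (59.4 to 62.0) in T-ALL and 56.5% (54.9 to 58.1) in T-MPAL, and 48.8% (45.0 to 52.7) of the 670 shared ones. The median length was 2 bases in T-ALL, 2 in T-MPAL and 4 among the shared INDELs. As with the SNVs, more of those of T-MPAL alone were called in M-MPAL, 1266 (34.6%) against 895 (15.8%) of those of T-ALL alone.

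Copy number rows shorter than 1 Mb were compared next. T-ALL had 117 gains (96.8 to 140) that summed to 1.61 Mb, T-MPAL had 316 (282 to 353) that summed to 37.0 Mb, and the control had 203 (176 to 233) that summed to 3.82 Mb. Losses numbered 7 (2.81 to 14.4; 1.00 Mb) in T-ALL, 23 (14.6 to 34.5; 0.897 Mb) in T-MPAL and 19 (11.4 to 29.7; 0.296 Mb) in the control. Most gains of T-MPAL lay on chromosomes 15 and 17, with 166 on chromosome 15 (30.8 Mb) and 49 on chromosome 17 (5.04 Mb). Without these chromosomes T-ALL had 108 gains (1.34 Mb), T-MPAL 101 (1.15 Mb) and the control 179 (3.39 Mb), so the leukaemias then had fewer than the control. T-MPAL also had 40 rows of 1 Mb or more, 38 of them on chromosome 15 and 2 on chromosome 17, and T-ALL had none.

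Many gains recurred between the libraries, and few losses did. Of the gains of T-ALL 80 overlapped one of T-MPAL and 68 one of the control, and of the gains of T-MPAL 78 overlapped one of T-ALL and 71 one of the control. No loss of either leukaemia overlapped a loss of the control. A single loss was common to both, an intergenic one at chr10:112818001-112823000 in T-ALL and chr10:112818001-112820000 in T-MPAL. Gains under 10 kb numbered 80 of 117 in T-ALL and 144 of 316 in T-MPAL.

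**Figure D5:**
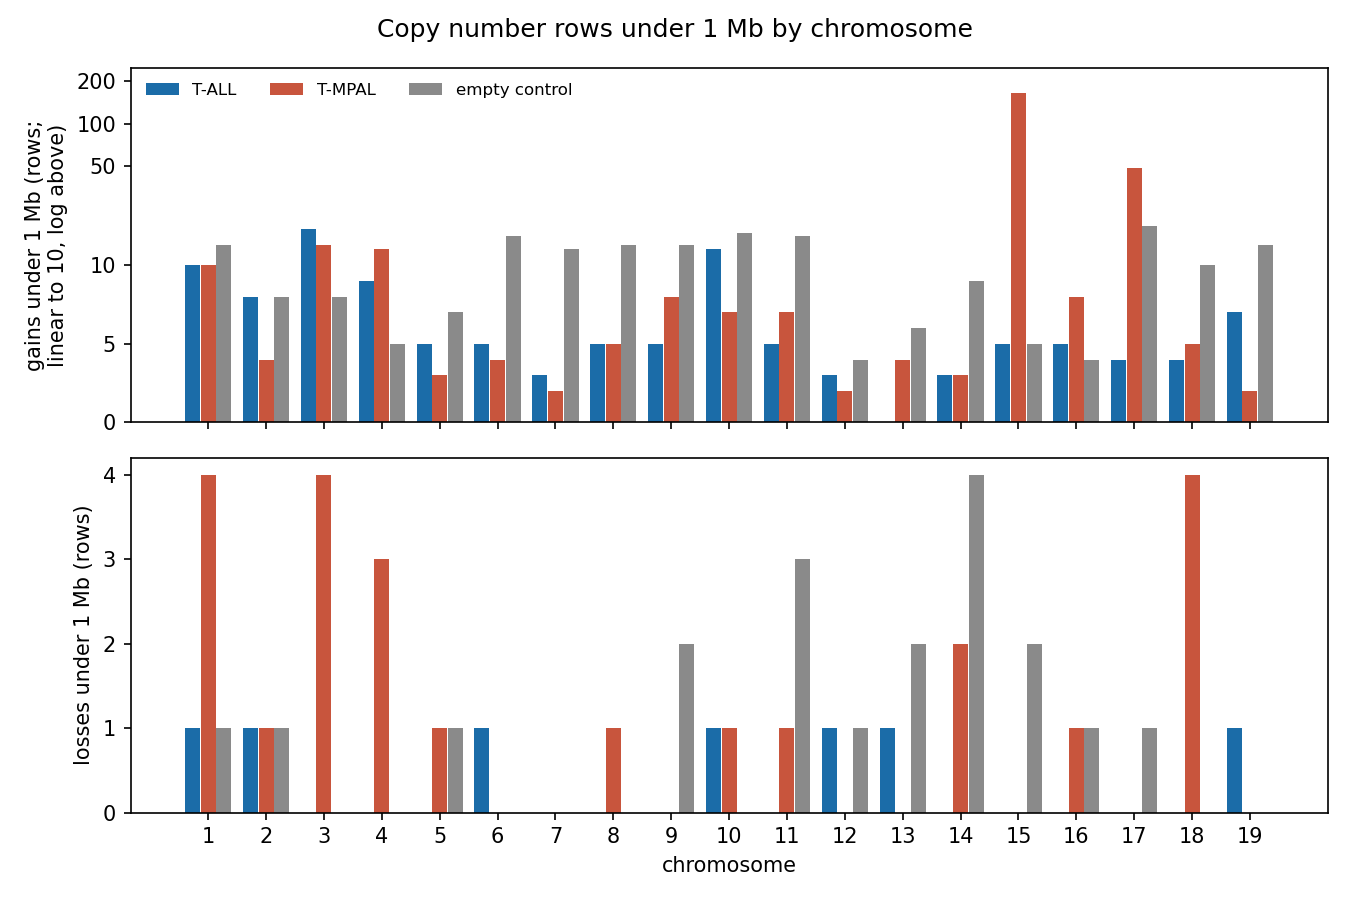
Number of copy number rows under 1 Mb on each chromosome for T-ALL (blue), T-MPAL (red) and the empty control (grey), gains above (linear up to 10 rows, log beyond) and losses below. T-MPAL has 166 gains on chromosome 15 and 49 on chromosome 17, where T-ALL has 5 and 4 gains and the control 5 and 19.

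DNA cannot show the CD3 protein, so the nearest check of the T-lineage label is DNA loss at the T-cell receptor loci. Both libraries had it, at different loci, and the control had none. The loci were not looked up in B-ALL, AML or M-MPAL, so this does not set the T-lineage libraries apart from the other leukaemias. Over all losses under 1 Mb, 6 of T-ALL overlapped none of the control or T-MPAL, and 5 of these none of B-ALL, AML or M-MPAL either. For T-MPAL, set against T-ALL in the same way, both counts were 22. T-ALL had 1 copy of chr6:41114001-41572000, a loss of 458 kb at Trb that ran between Trbv12-1 and Trbv31 and took in 24 of the 35 V segments and all the D, J and C segments of the locus. The same loss covers the trypsinogen genes that lie inside Trb, among them Prss1 and Try4. It ran past the end of the locus at chr6:41558371, with 0 segments after it, so this copy kept no D, J or C segment of Trb. Whether the joining of receptor segments made this loss was not tested. T-ALL also had 1 copy of 21 kb at Trg, with Trgv6 and Trgv5 inside, 2 of its 7 V segments. T-MPAL had 0 copies of chr14:53962001-54123000, a loss of 161 kb at Tra/Trd with Trav23, Trdv3, Trdv4, Trdd1 and Trdd2 inside, which ended before the first J segment of Trd. This row held both D segments, 3 of 136 V segments and none of the 62 J segments. Neither library had a row at the heavy, kappa or lambda immunoglobulin loci, where B cells rearrange, although 23 of the SNVs and INDELs of T-ALL alone lay in the kappa locus, against 0 of T-MPAL. No kept variant fell in Cd3d, Cd3e, Cd3g or Cd247, the genes of the CD3 chains.

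Outside the receptor loci the longest losses of T-ALL were 278 kb in Mdga2, which encodes a neuronal adhesion protein, and 90 kb over Bard1, the partner of Brca1 in DNA repair. The row at Bard1, chr1:70988001-71078000 at 1 copy, covered 66.7% of the gene. Intergenic losses of 78 kb on chromosome 2 and 72 kb on chromosome 19 followed. In T-MPAL the longest losses were 251 kb on chromosome 1, 112 kb on chromosome 4 and 96 kb on chromosome 1, all without a protein-coding gene, and 92 kb on chromosome 3 with the interferon-induced genes Ifi44 and Ifi44l and the prostaglandin receptor gene Ptgfr. Losses touched 0.0484% of protein-coding genes in T-ALL and 0.0436% in T-MPAL, against 0.029% in the control.

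The gains differed in size. The longest ones of T-ALL that the control lacked were 30 kb in an intergenic stretch of chromosome 1, 28 kb with Zfp24 (named after its value was seen) on chromosome 18, 25 kb in Cdh23, a cadherin gene, 19 kb on chromosome 9 listed at 52 copies, and 18 kb in Ahnak. The rows with Zfp24 and on chromosome 9 overlapped a gain of T-MPAL. The row in Cdh23 adjoins the rows at Psap and continues them. On chromosome 15 of T-MPAL 204 rows of any length summed to 100.6 Mb. All the longest gains of T-MPAL under 1 Mb lay there at 3 copies and cannot be read as separate focal events. They spanned 994 kb with Parvb and Parvg, which link integrins to actin, and Nup50, Samm50 and Pnpla3, 951 kb with Rad21 and Med30, 948 kb with Tnfrsf11b and Samd12, 889 kb with Angpt1 and Rspo2, and 883 kb with Trio and Ank. Gains under 1 Mb touched 0.213% of protein-coding genes in T-ALL and 2.07% in T-MPAL, against 0.348% in the control.

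Gene lists, 6 in number and with 183 genes, on these chromosomes, were searched for kept variants: genes of human T-ALL, of T-cell identity and receptor signalling, of myeloid and B cells, of chromatin and cohesin, of DNA repair and of the Myc network. None of the 183 had a protein-altering variant in T-ALL or in T-MPAL (0%, with an upper bound of 2.00% in each), where 0.0532% of all genes had one in T-ALL and 0.0919% in T-MPAL. A kept call of any kind, intronic ones included, was found in 17 list genes (9.29%, 5.51 to 14.5) in T-ALL and 24 (13.1%, 8.59 to 18.9) in T-MPAL, against 8.25% of all protein-coding genes in T-ALL and 6.51% in T-MPAL. List genes are longer, with a median of 36.6 kb against 17.5 kb, and the part of length in this was not tested. Of the 44 human T-ALL genes on these chromosomes 5 had a call in T-ALL and 7 in T-MPAL, with Pik3r1 and Runx1 in both. Of the 37 T-cell genes 2 had one in T-ALL (Themis and Tox) and 4 in T-MPAL (Cd4, Cd8b1, Fyn and Vav1), and of the 18 Myc network genes none in T-ALL and 1, Mycn, in T-MPAL. In T-ALL 4 of the 27 myeloid and B-cell genes, 3 of the 26 chromatin genes and 3 of the 33 repair genes had one, and in T-MPAL 2, 7 and 4 of them did. These list genes with calls that alter no protein were named after their values were seen. Cd8b1, the beta chain of the CD8 coreceptor, had an intronic SNV in T-MPAL with 14 of 30 reads, and Cd4 an intronic INDEL with 10 of 17.

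Copy number rows under 1 Mb touched list genes in T-MPAL more than in T-ALL. T-MPAL had gains over 6 of the 183 (3.28%, 1.21 to 7.0), against 2.07% of all genes. They were Myc itself, the cohesin genes Rad21 and Nipbl, the chromatin genes Ep300 and Arid2 and Xrcc6, the Ku70 gene of DNA end joining. Each lay whole within a row of 3 copies on chromosome 15 that overlapped a gain of M-MPAL. The row with Myc was chr15:61854001-62116000, that with Ep300 and Xrcc6 chr15:81264001-82063000 and that with Nipbl chr15:8114001-8566000. The 6 genes share 1 chromosome whose rows sum to 100.6 Mb, so they are not separate observations. T-ALL had no gain over a list gene, against 0.213% of all genes, and 1 loss, that of Bard1 (0.546% of the list, 0.0138 to 3.01), against 0.0484% of all genes. The control had neither.

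SNVs of T-ALL alone lay in 344 genes and those of T-MPAL alone in 384, of which 41 were in both, 11.9% of the genes of T-ALL and 10.7% of those of T-MPAL. The median length of the 41 was 650 kb, against 114 kb for all genes hit in T-ALL, 139 kb for those hit in T-MPAL and 17.5 kb for all protein-coding genes. INDELs lay in 1494 genes in T-ALL and 1074 in T-MPAL, with 347 in both. These were 23.2% of those of T-ALL and 32.3% of those of T-MPAL, with a median length of 295 kb. SNVs and INDELs of T-ALL alone together lay in 8.25% of the 20665 protein-coding genes, and those of T-MPAL alone in 6.51%. Whether the genes in both exceed what these shares and gene length would give was not tested. The genes with the most SNVs in T-ALL after Mroh2a, which had 19, were Thbs1 and Coro2a, a coronin gene, with 12 each, and Luc7l, a splicing factor gene, with 10. T-MPAL had no kept SNV in any of these 3. Its genes with the most SNVs after Mroh2a, which had 30, were Erbb4, a receptor tyrosine kinase, with 5, and then Csmd1, Mucl1, Sfi1, Sgcz, Tenm4 and Trpm8 with 4 each. T-ALL had 0 in Sgcz and 1 in each of the other 6 of these.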

How the data were processed

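Whole-genome DNA libraries of T-ALL, T-MPAL and the empty control were compared, 1 per group, with B-ALL, AML, AUL and M-MPAL used to say where else an allele was called. The submitters' processing notes name BWA and build mm10. SNVs and INDELs came from samtools, copy number rows from FREEC and annotation from ANNOVAR with dbSNP 142, per the file headers and names. For versions and caller settings, none is given in the sources used here. The deposited quality values are a Phred-scaled score, and the deposited depths (DP, DV) are read counts at called sites. Copy number was deposited as whole copies per region, with 2 as normal, beside the region size. The 6 integration site samples were not analysed here, and the AUL copy number table, which ends in the middle of a line, was not used.

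Kept calls had DP of 10 or more, QUAL of 100 or more, DV of 4 or more, DV/DP of 0.2 or more, no segmental duplication and no call in the control. Samples were grouped by their labels. No test was possible with 1 library per group, so exact Poisson and Clopper-Pearson intervals (95%) were used. By the deposited annotation, a protein-altering call is a missense, stop or splicing SNV or an INDEL annotated as frameshift, in-frame or splicing. Exonic calls of unknown effect (2 SNVs and 2 INDELs in T-ALL alone) were not counted. Named genes are list genes with a protein-altering call or a copy number row, up to 10 genes per class with the most alternative reads, genes with frameshift or splice calls, genes hit in both libraries, genes in the 5 longest gains and losses that the control lacked, and the receptor loci, without Olfr, Vmn, Zfp, Gm and Rik genes. Others are named where stated. Of the items found, 1 is not reported here. Gene spans, promoters and miRNAs came from RefSeq tables of GRCm38.p6. All 67 coding calls checked lay inside their gene's span, and at 17 of 17 calls in promoter windows the reference base matched. The libraries, members, filters and lists were chosen with earlier results of these data known. The alternatives changed depth, quality, share, repeats, dbSNP, segmental duplications, nearby control calls, clusters, weaker calls and row length or merging. Leaving dbSNP, clustered and other-library calls out together, and leaving chromosomes 15 and 17 out of the copy number counts, and the missense share without 11 genes, were added after the data were seen. Scripts (Python 3.11.15, pandas 2.3.3, scipy 1.17.1) were tested on simulated data.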

Additional observations from a re-analysis of the deposited data

How the results depend on the processing

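No paired analysis was possible because each group has 1 library and the labels give no replicate numbers, and no library could be left out for the same reason. Of 106 values under other settings, 64 stayed within 1.5 times the main count and 42 did not. Each setting's effect is by construction a loss or gain of calls, and why the libraries responded unequally was not tested. At a depth of at least 20 reads INDELs numbered 2226 in T-ALL alone, 1273 in T-MPAL alone and 131 shared. With no quality minimum SNVs numbered 4152 in T-ALL, 2668 in T-MPAL and 1002 shared, INDELs 46811 in T-ALL, 30816 in T-MPAL and 7557 shared, and protein-altering variants 26 in T-ALL and 6 shared. Without repeats SNVs numbered 911 in T-ALL, 686 in T-MPAL and 188 shared, and INDELs 112 in T-ALL, 85 in T-MPAL and 68 shared. Without dbSNP variants SNVs numbered 1070 in T-ALL and 145 shared, and 1 shared protein-altering variant was left. With segmental duplications kept, shared SNVs numbered 1054 and shared protein-altering variants 11. Without alleles of the other 4 leukaemia libraries, SNVs numbered 661 in T-MPAL and 8 shared, INDELs 2808 in T-ALL, 1630 in T-MPAL and 42 shared, and protein-altering variants 10 in T-MPAL and 0 shared. Without clustered calls SNVs numbered 980 in T-ALL and 217 shared, with 1 shared protein-altering variant. With dbSNP, clustered and other-library calls all left out, SNVs numbered 642 in T-ALL and 589 in T-MPAL, INDELs 2304 in T-ALL and 1269 in T-MPAL, and protein-altering variants 6 in T-ALL and 10 in T-MPAL. Copy number rows, gains and losses together, were 124 in T-ALL and 339 in T-MPAL. T-ALL had 56 of them without those that overlap the control and 80 with rows within 10 kb merged, and T-MPAL had 104 when merged and 124 without chromosomes 15 and 17. T-MPAL kept more rows than T-ALL in each setting, with 115 in T-ALL and 124 in T-MPAL without chromosomes 15 and 17. For SNVs the order of the libraries turned without dbSNP variants (T-ALL over T-MPAL 0.934) and without clustered calls (0.778). Depth limits the shares of single variants: the 12 of 26 reads at Cd180 give an interval of 26.6% to 66.6%.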
